A study of Mus musculus with 11 samples.

Results

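Nephritic podocytes with a podocyte-specific deletion of Myd88 (MyD88pko) were compared with nephritic podocytes that kept Myd88 (Pod TOM, labelled WT). The comparison used 6 of the 11 libraries of the series, 3 per genotype. It describes 11824 protein-coding genes, those with a mean normalised read count (CPM, counts scaled to library depth) of at least 5 in either nephritic group, of 34547 genes in the table. Mean levels reached that minimum in both groups for 11176 genes, in Pod TOM only for 426 and in MyD88pko only for 222. Just inside it lay Zfp3 at 5.002 CPM and just outside it BC053393 at 4.995 CPM. All mice were C57BL/6 by the labels (C57BL/6N in the study's methods) and carried the PodCre transgene, which drives Cre recombinase and the red fluorophore mTomato in podocytes only. Pod TOM sorted controls were PodCre/wt x MyD88wt/wt and MyD88pko mice were PodCre/wt x MyD88flox/flox, so that the deletion was limited to podocytes. Nephrotoxic nephritis (NTN) had been induced in male mice of 8 to 16 weeks with 9 µl of nephrotoxic sheep serum per gram of body weight on each of 2 days. Podocytes were sorted for mTomato on day 5, and RNA was amplified before sequencing because little was obtained. The remaining 5 libraries, 3 Pod TOM and 2 MyD88pko, came from untreated podocytes and enter only where named.

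MYD88 is the cytoplasmic adaptor that couples most Toll-like receptors and the receptors of the interleukin-1 family to IRAK kinases, TRAF6 and TAK1, and through them to NF-κB and MAP kinases. Toll-like receptor 3 instead uses the adaptor TRIF, which leads to TBK1 and IRF3, and Toll-like receptor 4 can use both. Podocytes are the epithelial cells whose interdigitating foot processes carry the slit diaphragm of the glomerular filter. In nephrotoxic nephritis, antibodies bind the glomerular basement membrane and an inflammatory response follows in the glomerulus.

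Nephritic libraries held 20080140 to 32764201 estimated counts. Values below are CPM after normalization over these 6 libraries and are listed for replicates 1, 2 and 3 of Pod TOM and then of MyD88pko. The first principal component took 51.0% of the variance of the 500 most variable genes and did not separate the genotypes. It set Pod TOM replicate 1 and MyD88pko replicates 1 and 2 (scores of -26.9, -26.3 and -31.0) apart from Pod TOM replicates 2 and 3 and MyD88pko replicate 3 (16.1, 31.5 and 36.65). Olfactory receptor genes summed to 15900, 13410 and 15910 CPM in the first set and to 12060, 10520 and 6612 CPM in the second. The labels do not say whether libraries came from separate mice, so each p-value reflects only how far these libraries spread. Every Pod TOM title has one prefix and every MyD88pko title another, and the meaning of the prefixes is not given. Genotype and whatever the prefix stands for cannot be told apart.

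The podocyte label held. All 20 podocyte markers were described, and their summed level was 44280, 50390 and 44270 CPM in Pod TOM against 47430, 44600 and 60590 CPM in MyD88pko. Podxl, the sialomucin of the foot process surface, had 14120, 16560 and 13530 CPM in Pod TOM and 14710, 13800 and 19170 CPM in MyD88pko. None of the 20 passed the test.

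Between the nephritic genotypes, 2 genes were lower in MyD88pko podocytes and 0 were higher among the 19080 genes tested (edgeR quasi-likelihood test, Benjamini-Hochberg adjusted p under 0.05). These are 0.0105% and 0% of the genes tested. Both lower genes, Myd88 and Pttg1, were among the 11822 described genes that could be tested. At an unadjusted p under 0.05, 645 genes were higher (3.38%) and 785 lower (4.11%). DESeq2 on the same counts called 31 higher (0.162%) and 129 lower (0.676%), and limma-voom with quality weights called 58 higher (0.304%) and 215 lower (1.13%). With both of these tools, 24 described genes were higher (0.203%) and 89 lower (0.753%). Without Pod TOM replicate 3, edgeR called 11 genes higher and 34 lower. Leaving out MyD88pko replicate 3 gave 0 and 6, either of the other MyD88pko replicates 0 and 3, and Pod TOM replicate 2 0 and 1. In what follows, a gene passed where its edgeR adjusted p was under 0.05, in nephritis on these 6 libraries unless another fit is named, and members of a list called by both DESeq2 and limma-voom are counted separately where there were any.

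Myd88, the deleted gene, was read first as a check of the labels. Its level was 10.8, 8.21 and 14.6 CPM in Pod TOM podocytes and 0.513, 0.497 and 0.469 CPM in MyD88pko podocytes. Each MyD88pko library lay far below each Pod TOM library, and the labels of all 6 held. The means were 11.2 ± 3.23 CPM (SD, n = 3) and 0.493 ± 0.0225 CPM (SD, n = 3). Counts behind these levels were 224, 207 and 298 in Pod TOM and 12, 11 and 14 in MyD88pko, so a remainder of reads was left in each MyD88pko library. The log2 fold change was -4.50 (SE 0.359, 95% confidence interval -5.30 to -3.69, edgeR adjusted p = 0.00432). The call held without each library in turn and was lost with limma on log2(TPM + 1) (adjusted p = 0.290).

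Reads of Myd88 fell mostly on 1 transcript. Myd88-201, the spliced transcript of 6 exons, held 217.2, 194.2 and 211.2 estimated counts in Pod TOM and 11.4, 11 and 9.17 in MyD88pko. Myd88-203, a transcript with a retained intron, held 6.83, 12.85 and 86.8 estimated counts in Pod TOM and was listed at 0 in all 3 MyD88pko libraries. Myd88-202 was listed at 0 in Pod TOM and at 0.560, 0 and 4.83 in MyD88pko. The high Pod TOM replicate 3 of the gene therefore held its excess in Myd88-203.

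Myd88 lies on the reverse strand of chromosome 9. The 227 bases before the start of Myd88-201 (chr9:119340042-119340268, GRCm38.p6, reverse strand, RefSeq sequence) are shown because they lead into the transcript that carried most of the lost reads.
Myd88 promoter: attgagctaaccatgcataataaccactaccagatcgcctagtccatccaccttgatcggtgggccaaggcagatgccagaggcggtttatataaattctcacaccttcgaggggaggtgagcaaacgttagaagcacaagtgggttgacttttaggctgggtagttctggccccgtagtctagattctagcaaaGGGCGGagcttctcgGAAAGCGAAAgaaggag
Capitals mark matches to 2 motifs searched on both strands. The GC box GGGCGG lay 32 to 27 bases before the start, and 29.4% of 32851 RefSeq windows of this length held it. The core of the interferon-stimulated response element, GAAA followed by any 2 bases and GAAA, lay 17 to 8 bases before the start, and 2.70% of the windows held it. The 2 motifs did not overlap. Another motif, the CCAAT box (CCAAT), had no match in this window and was held by 31.8% of the windows. These are letter matches only.

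Pttg1 encodes securin, the inhibitor of separase that holds sister chromatids together until anaphase. It lies on chromosome 11 (chr11:43420250-43426251, reverse strand, GRCm38). Its level was 71.3, 87.0 and 118 CPM in Pod TOM and 22.5, 23.3 and 19.0 CPM in MyD88pko. The groups stood apart, and the 3 MyD88pko libraries lay closer together than the 3 Pod TOM libraries. The log2 fold change was -2.10 (SE 0.202, 95% confidence interval -2.54 to -1.65, edgeR adjusted p = 0.0120). Without Pod TOM replicate 2 the adjusted p was 0.0712. With limma it was 0.347 on the natural log of the counts and 0.290 on log2(TPM + 1). The most abundant Pttg1 transcript held 1336, 1940 and 2231 estimated counts in Pod TOM and 499.1, 485.5 and 547.1 in MyD88pko. The next held 118.6, 233.1 and 157.9 against 26.8, 22.7 and 9.51 estimated counts. Both transcripts were lower in each MyD88pko library than in each Pod TOM library.

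Untreated podocytes showed the same 2 genes lower in MyD88pko. On the scale of all 11 libraries Myd88 had 6.49, 7.945 and 7.23 CPM in untreated Pod TOM and 0.976 and 0.200 CPM in untreated MyD88pko (log2 fold change -3.60, SE 0.543, edgeR adjusted p = 0.0238). Pttg1 had 21.8, 20.8 and 17.0 CPM against 4.68 and 3.61 CPM (log2 fold change -2.26, SE 0.257, adjusted p = 0.00234). In untreated podocytes 4 of 21200 genes passed, all lower in MyD88pko (0.0189%), and the others were Gm15446 and Cldn1. Leaving out either untreated MyD88pko replicate leaves a lone MyD88pko library that is assumed to vary like the other groups. A call kept or lost there says nothing about stability. Without replicates 1 and 2 in turn, log2 fold changes were -5.13 and -2.88 for Myd88 and -2.46 and -2.08 for Pttg1. Pttg1 passed without each of the 3 untreated Pod TOM libraries. The adjusted p of Myd88 was 0.105 without untreated Pod TOM replicate 2 and 0.0864 without replicate 3. Across both conditions, 1 of 21200 genes passed the test of whether the genotype difference itself differed (0.00472%), and it was the pseudogene Gm7334. At an unadjusted p under 0.05 there were 1232 genes (5.81%). The difference between the nephritic and the untreated genotype difference was -0.90 for Myd88 (SE 0.672, adjusted p = 0.956) and 0.15 for Pttg1 (adjusted p = 1). A p that misses the threshold does not show that the genotype differences are alike.

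Gm15446, a predicted protein-coding gene on chromosome 5, had 11.7, 15.1 and 11.99 CPM in nephritic Pod TOM and 3.21, 3.21 and 2.44 CPM in nephritic MyD88pko. Its log2 fold change of -2.13 (SE 0.262) missed the threshold in nephritis (edgeR adjusted p = 0.0530). In the fit of all 11 libraries, from which the untreated values come, it was lower in nephritic MyD88pko (adjusted p = 0.00452), as it was with DESeq2 (6.9e-09), limma-voom (0.00374) and TMM without satellite-like and receptor genes (0.0376). In untreated podocytes it was lower in MyD88pko (log2 fold change -2.48, adjusted p = 0.0154), with 0.0864 without Pod TOM replicate 3. Without untreated MyD88pko replicates 1 and 2 in turn, its log2 fold change was -2.39 and -2.57. Cldn1, a claudin of tight junctions, was lower in untreated MyD88pko, with 52.7, 51.5 and 61.4 CPM against 18.6 and 19.2 CPM (log2 fold change -1.55, adjusted p = 0.0172). The adjusted p of Cldn1 was 0.0512 and 0.0864 without untreated Pod TOM replicates 2 and 3. Its log2 fold change was -1.53 and -1.57 without untreated MyD88pko replicates 1 and 2. In nephritis Cldn1 had 69.9, 76.4 and 78.3 CPM against 55.1, 62.4 and 91.0 CPM, and the groups overlapped. The difference between both genotype differences of Cldn1 was 1.44 (SE 0.285, edgeR adjusted p = 0.348). This difference was called by DESeq2 (adjusted p = 0.00155) and by edgeR with no filter on low counts (adjusted p = 0.00109).

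**Figure D1:**
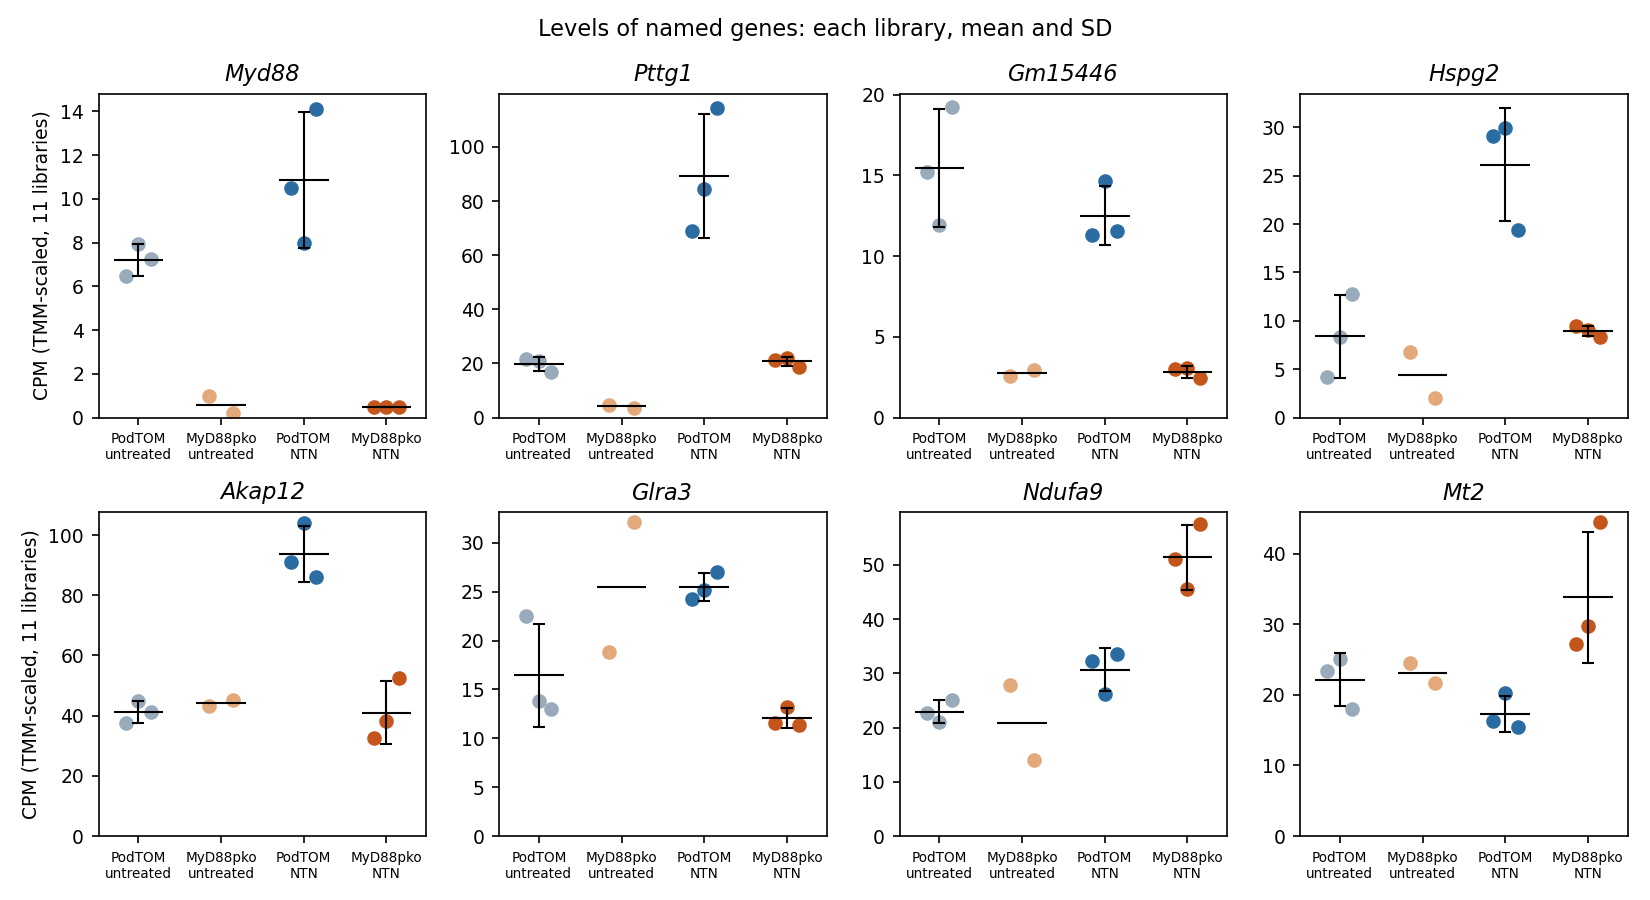
Normalised levels (CPM on the scale of all 11 libraries) of Myd88, Pttg1, Gm15446, Hspg2, Akap12, Glra3, Ndufa9 and Mt2 in untreated and nephritic podocytes of both genotypes. Each point is a library, the horizontal line the group mean and the bar the SD for groups of 3. Myd88 and Pttg1 sit lower in MyD88pko than in Pod TOM podocytes with and without nephritis.

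Further genes with small p-values, picked among those whose groups did not overlap, missed the threshold and are given as values. Hspg2, the basement membrane proteoglycan perlecan, had 30.04, 30.8 and 20.1 CPM in Pod TOM and 9.96, 9.53 and 8.43 CPM in MyD88pko (log2 fold change -1.54, SE 0.215, edgeR adjusted p = 0.124). Akap12, a scaffold that anchors protein kinase A, had 94.1, 107 and 89.1 CPM against 34.3, 40.03 and 53.0 CPM (log2 fold change -1.19, adjusted p = 0.155). That every MyD88pko library lay below every Pod TOM library follows from this choice of genes. Glra3, a glycine receptor subunit, had 25.1, 25.9 and 28.0 CPM against 12.2, 13.9 and 11.5 CPM (log2 fold change -1.07, adjusted p = 0.215). Gm3055, a predicted gene on chromosome 10, had 19.3, 23.6 and 19.4 CPM against 0.470, 0.181 and 2.68 CPM (log2 fold change -4.16, SE 0.687, adjusted p = 0.245). Hspg2, Akap12, Glra3 and Gm3055 were all lower with both DESeq2 and limma-voom. Of these, only Akap12 passed with edgeR in the fit of all 11 libraries (adjusted p = 0.0126). Predicted genes such as Gm15446 and Gm3055 can share reads with related copies, and reads were assigned without strand, so their levels are uncertain.

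On the other side, the 8 genes with the smallest p-values among those without overlap had edgeR adjusted p-values of 0.272 to 0.342. Cdpf1 had 5.42, 3.73 and 4.37 CPM in Pod TOM and 11.97, 8.90 and 14.5 CPM in MyD88pko (log2 fold change 1.39, edgeR adjusted p = 0.272). Ndufa9, a subunit of respiratory complex I, had 33.4, 27.0 and 34.8 CPM against 54.0, 47.8 and 58.1 CPM (log2 fold change 0.75, adjusted p = 0.297). Rps4x, a protein of the small ribosomal subunit, had 117, 109 and 118 CPM against 172, 164 and 196 CPM (log2 fold change 0.63, adjusted p = 0.311). For these genes and the others of the 8, the lack of overlap follows from that choice. Mt2, a metal-binding metallothionein, had 16.8, 20.9 and 16.0 CPM against 28.8, 31.3 and 44.8 CPM (log2 fold change 0.97, adjusted p = 0.311). Log2 fold changes were 0.69 for Slc25a5, a mitochondrial ADP/ATP carrier, 0.87 for Arhgap19, a GTPase-activating protein, 0.66 for Rnf130 and 0.88 for Cdkn2aip. Of the first 40 described genes by p-value, 39 were lower in MyD88pko by their fold change.

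**Figure D2:**
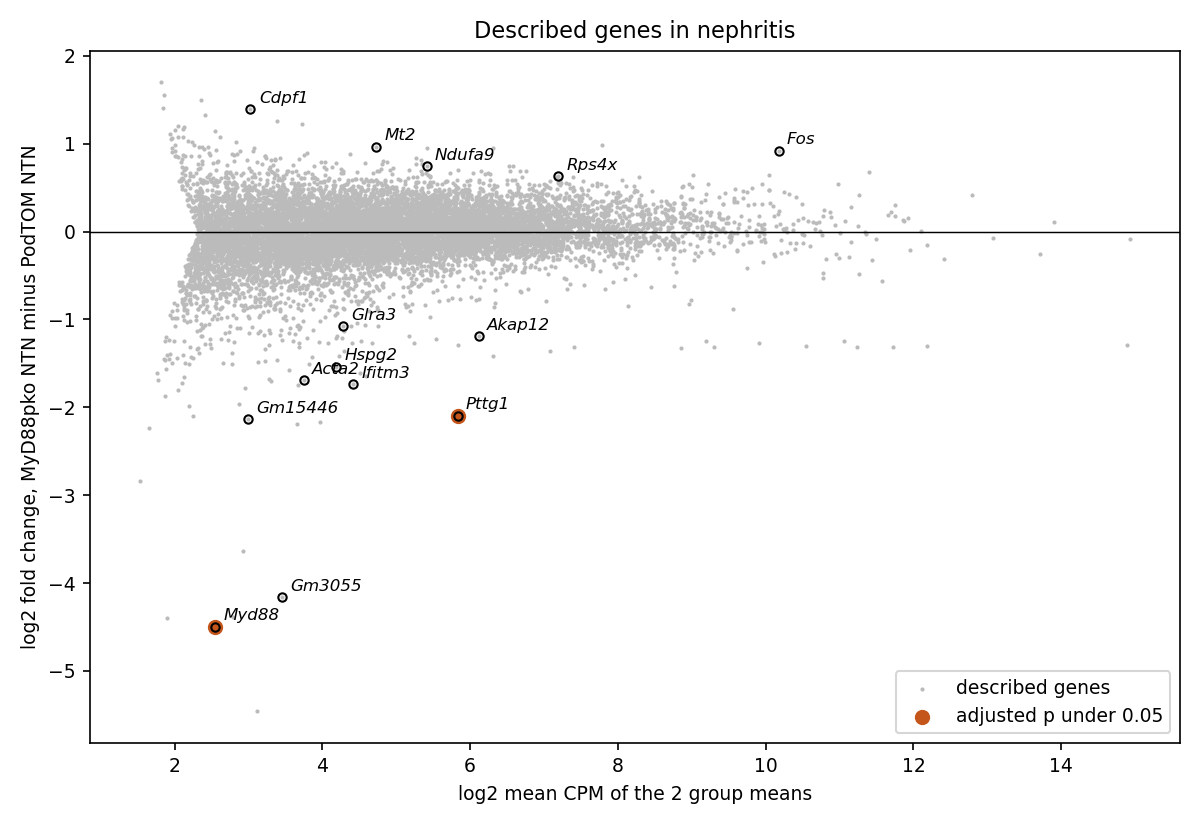
Log2 fold change (MyD88pko against Pod TOM, both nephritic) against mean level (log2 CPM) for the described genes. Each point is a gene. Myd88 and Pttg1 passed the test, and 90.3% of the genes lie within 0.5 of 0 on the log2 scale.

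The MyD88-dependent receptors and signalling genes were then read by role, to see what accompanied the lost adaptor. Of 39 listed genes 26 were described, and apart from Myd88 none passed the test (lowest edgeR adjusted p = 0.520). The 25 others had log2 fold changes between -0.64 and 0.37. Their 95% intervals lay within 1 on the log2 scale for 20 of the 25, and the outermost bounds were -1.40 and 1.13. Among receptors, Tlr7, the endosomal sensor of single-stranded RNA, had 56.2, 61.0 and 56.4 CPM in Pod TOM and 75.9, 65.1 and 62.7 CPM in MyD88pko (log2 fold change 0.23, 95% confidence interval -0.08 to 0.54). Tlr4, the lipopolysaccharide receptor, had 9.14, 7.41 and 5.35 CPM against 5.60, 6.51 and 2.71 CPM (log2 fold change -0.57, interval -1.40 to 0.26). Tlr6, a partner of Tlr2, had 10.4, 10.35 and 10.6 CPM against 6.46, 7.64 and 6.02 CPM (log2 fold change -0.64). Il1rl1, the receptor of interleukin-33, had 10.5, 10.5 and 10.9 CPM against 6.11, 7.18 and 7.66 CPM (log2 fold change -0.60). Tlr6 and Il1rl1, both lower, and Tlr7, which was higher, did not overlap between the groups but missed the threshold. Tlr4 overlapped. Tlr1 overlapped too, with a log2 fold change of 0.20. In this list 2 were higher and 3, with Myd88, lower without overlap (7.69% and 11.5%, against 8.13% and 8.48% of described genes). Tlr2 itself was below the 5 CPM minimum.

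Of the signalling genes downstream of the receptors, none but Myd88 passed. Tollip, an inhibitor of this signalling, had 124.6, 138.9 and 158.5 CPM in Pod TOM and 178.3, 165.4 and 200.8 CPM in MyD88pko (log2 fold change 0.37, edgeR adjusted p = 0.602), and the groups did not overlap. The bridging adaptor Tirap had a log2 fold change of -0.12, and the kinases Irak4 and Irak1 had -0.16 and 0.23. For these 3 genes the groups overlapped. The 95% intervals were -0.45 to 0.22 for Tirap, -0.61 to 0.28 for Irak4 and -0.18 to 0.64 for Irak1.

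The genes of TRIF and nucleic acid sensing, the branch that does not need MYD88, gave 14 described of 19 listed and none passed (lowest edgeR adjusted p = 0.729). Their log2 fold changes ran from -0.46 to 0.26, and 12 of the 14 intervals lay within 1 on the log2 scale, with outermost bounds of -1.74 and 0.83. Tlr3, the receptor of double-stranded RNA, had 19.8, 12.8 and 13.0 CPM in Pod TOM and 10.2, 12.5 and 11.6 CPM in MyD88pko (log2 fold change -0.41). Of the 14, 0 were higher and 2 lower without overlap (0% and 14.3%, against 8.13% and 8.48% of described genes), Tlr3 among them. Irf3, the transcription factor activated in this branch, had 61.0, 67.0 and 77.2 CPM against 68.2, 67.5 and 78.7 CPM (log2 fold change 0.06, 95% confidence interval -0.26 to 0.39). The kinase Tbk1 had a log2 fold change of -0.25 and overlapped.

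**Figure D3:**
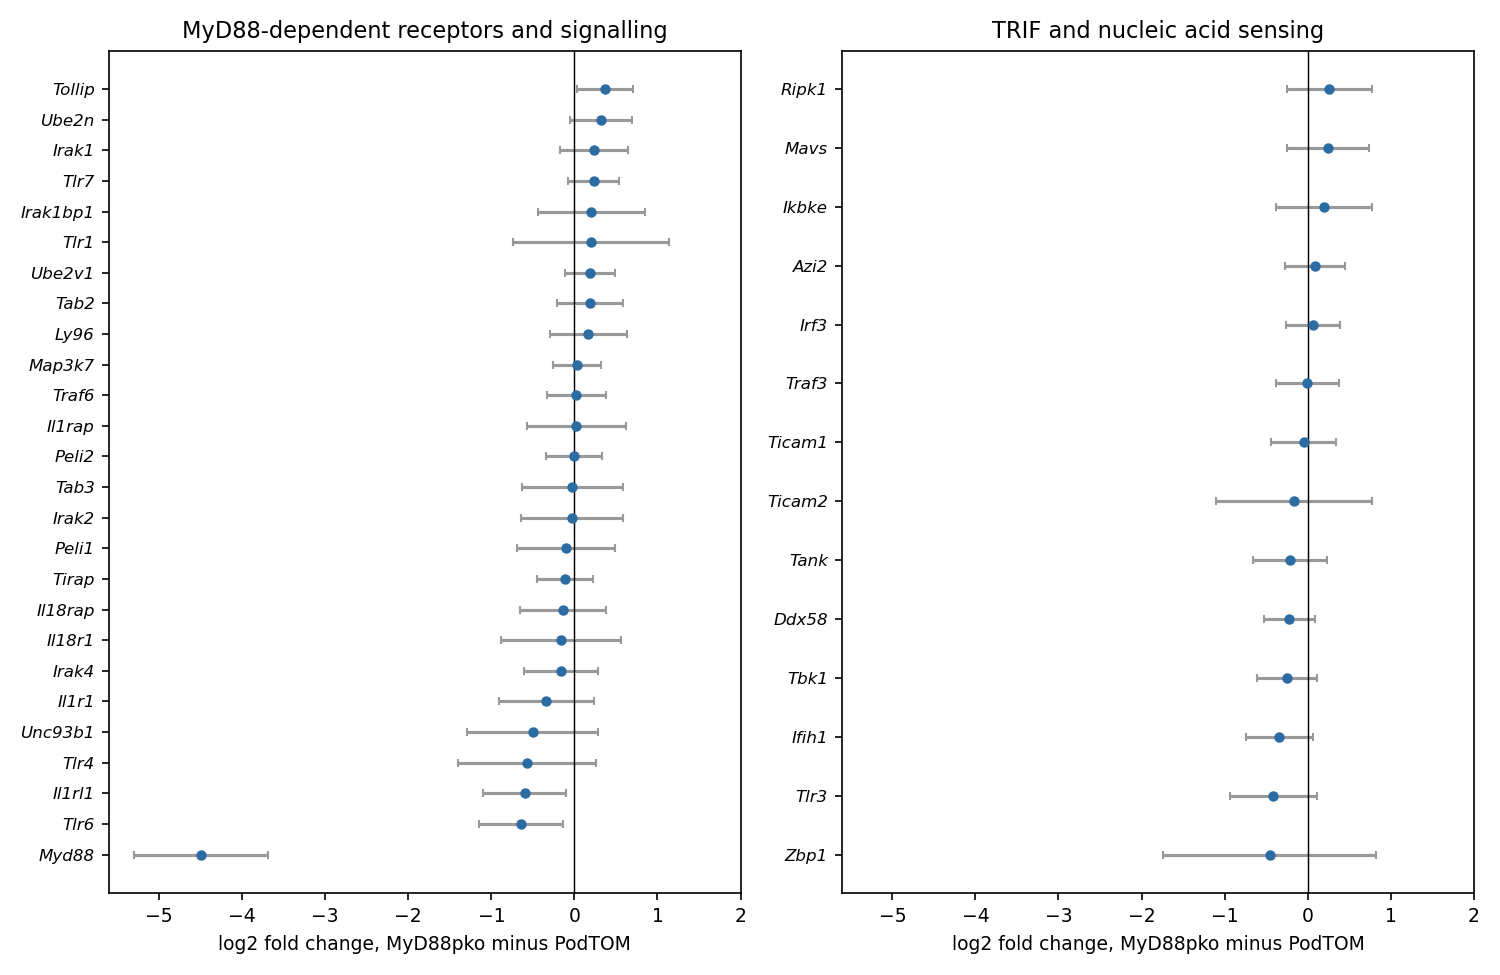
Log2 fold change (MyD88pko against Pod TOM, both nephritic) with 95% confidence interval for each described gene of the MyD88-dependent and of the TRIF list. Points are estimates and bars are intervals. Myd88 lies at -4.50, and the other 25 genes of its list lie between -0.64 and 0.37.

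Genes of NF-κB signalling and immediate early genes did not pass either. Of 22 described NF-κB subunits, kinases and inhibitors 0 were higher and 1 lower without overlap, where 6.07% and 7.74% of all tested genes and 8.13% and 8.48% of the described genes were. Nfkbia, the inhibitor that NF-κB itself induces, had 91.9, 107 and 225.6 CPM in Pod TOM and 182.6, 151.9 and 250.3 CPM in MyD88pko, and the groups overlapped. Immediate early genes, which are transcribed within minutes of a stimulus or of tissue handling, had a positive fold change in all 25 described members and a median log2 fold change of 0.47, where the median of all described genes was 0.01. Of these 25, 5 were higher without overlap (20%, against 8.13% of the described genes). None passed, and 2 were higher with both DESeq2 and limma-voom, Fos and Klf4, where 0.203% of the described genes were. Fos, a component of AP-1, had 646.6, 697.4 and 1053 CPM against 1450, 1369 and 1725 CPM (log2 fold change 0.92, edgeR adjusted p = 0.342) and was singled out after its values were seen. Egr1, a zinc finger factor, had 1466, 1734 and 3041 CPM against 3102, 2958 and 3918 CPM, and the high Pod TOM replicate 3 overlapped with MyD88pko.

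Chemokines and cytokines gave 21 described of 42 listed, with 1 higher and 6 lower without overlap (4.76% and 28.6%, against 8.13% and 8.48% of the described genes) and a median of -0.24. None passed. Cxcl1, a neutrophil attractant, had 31.3, 34.3 and 40.2 CPM in Pod TOM and 20.9, 23.5 and 47.1 CPM in MyD88pko, and MyD88pko replicate 3 was the highest of all 6. Cxcl10, an attractant of T cells, had 32.2, 38.5 and 44.6 CPM against 24.9, 28.0 and 28.0 CPM (log2 fold change -0.51, edgeR adjusted p = 0.482). Tgfb2, a transforming growth factor, had 38.7, 45.4 and 46.6 CPM against 23.6, 24.9 and 35.8 CPM (log2 fold change -0.63, adjusted p = 0.434). Cxcl10 and Tgfb2 were lower in each MyD88pko library. The log2 fold changes of Cxcl12 and Cxcl15 were 0.12 and 0.23 and both overlapped.

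Interferon-stimulated genes gave 32 described of 48 listed, with 1 higher and 8 lower without overlap (3.12% and 25%, against 8.13% and 8.48% of the described genes) and a median of -0.09. None passed, and 1 was lower with both DESeq2 and limma-voom, where 0.753% of the described genes were. Ifitm3, which restricts virus entry, had 44.1, 37.5 and 17.0 CPM in Pod TOM and 11.5, 10.6 and 7.46 CPM in MyD88pko (log2 fold change -1.74, SE 0.333, edgeR adjusted p = 0.249). In untreated podocytes, on the scale of all 11 libraries, Ifitm3 had 1.85, 3.18 and 3.39 CPM against 9.17 and 2.20 CPM. Its log2 fold change there was 1.01 (SE 0.513, edgeR adjusted p = 0.910) and rested on MyD88pko replicate 1. The difference between both genotype differences of Ifitm3 missed the threshold (edgeR adjusted p = 0.432). Ifi44 had a log2 fold change of -0.16 and Ifnar2, a chain of the type I interferon receptor, of 0.11, and both overlapped. The 22 MHC class I and antigen processing genes were all described and had a median of 0.11, and the 12 complement genes had 1 higher and 3 lower without overlap (8.33% and 25%) and a median of -0.20. No member of either list passed.

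Genes of MHC class II, which antigen-presenting cells express, varied widely within Pod TOM and were singled out after their values were seen. Cd74, the invariant chain, had 9.58, 40 and 1.13 CPM in Pod TOM and 0.428, 0.226 and 0.469 CPM in MyD88pko (log2 fold change -5.46, SE 1.13, edgeR adjusted p = 0.311). H2-Ab1 had 7.40, 31.95 and 0.197 CPM against 0.898, 0.271 and 0.703 CPM, and the groups overlapped. The level in Pod TOM rested mainly on replicate 2.

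Podocyte structure showed no gene past the threshold. Of 39 described slit diaphragm and foot process genes, 1 was higher and 1 lower without overlap (2.56% each, below the 8.13% and 8.48% of the described genes), 0 had an unadjusted p under 0.05 and the median was 0.03. Synpo, which encodes the actin-associated synaptopodin, had 4209, 4841 and 4100 CPM in Pod TOM and 4107, 3790 and 5366 CPM in MyD88pko (log2 fold change 0.01, 95% confidence interval -0.41 to 0.44). Tcf21, a podocyte transcription factor singled out after its values were seen, had 214.8, 217.5 and 220.8 CPM against 328.4, 242.4 and 320.3 CPM (log2 fold change 0.45, edgeR adjusted p = 0.515). Of 24 podocyte transcription and secreted factors, 2 were higher without overlap (8.33%).

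The 75 described genes of the actin cytoskeleton split into 40 with a positive and 35 with a negative fold change, with 10 higher and 5 lower without overlap (13.3% and 6.67%, against 8.13% and 8.48% of the described genes) and a median of 0.01. The crosslinkers Actn1 and Actn4 had log2 fold changes of -0.37 and -0.16. Myh9, a non-muscle myosin heavy chain, had 1132, 1299 and 1193 CPM in Pod TOM and 890, 904 and 1248 CPM in MyD88pko (log2 fold change -0.25, edgeR adjusted p = 0.840), and Tpm1, a tropomyosin, had -0.25. For these 4 genes MyD88pko replicate 3 lay above the other 2 MyD88pko libraries and overlapped with Pod TOM. The myosin light chain Myl12a had 702.6, 696 and 840.8 CPM against 981.8, 953.6 and 1215 CPM (log2 fold change 0.49, adjusted p = 0.502), without overlap. Its relatives Myl12b and Myl6 had 0.20 and 0.36. Actg1, a cytoplasmic actin, had 0.09, the membrane-bending protein Fnbp1 had -0.21 and Arhgap23 had -0.12. The ubiquitin ligase Nedd4 had a log2 fold change of 0.10 and the ligand Wnt5a of -0.01. Scrib, a polarity protein, had 11.4, 12.6 and 17.1 CPM against 10.1, 9.40 and 12.65 CPM (log2 fold change -0.35, adjusted p = 0.816). Of the 40 described genes of tight junctions, polarity and adherens junctions, 3 were higher and 3 lower without overlap (7.50% each, against 8.13% and 8.48% of the described genes), and the median was 0.09.

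Basement membrane and matrix genes, markers of glomerular endothelium and markers of mesangium had mostly negative fold changes. Of 39 described matrix genes 31 had a negative fold change, 8 were lower without overlap (20.5%, against 8.48% of the described genes) and 0 higher, and the median was -0.24. Col4a2, an α chain of type IV collagen singled out after its values were seen, had 45.4, 37.7 and 19.9 CPM in Pod TOM and 12.7, 11.9 and 9.24 CPM in MyD88pko (log2 fold change -1.61, edgeR adjusted p = 0.249). Col4a3, a chain of the mature glomerular basement membrane that podocytes make, had 3378, 3913 and 3504 CPM against 3741, 3513 and 4505 CPM and overlapped. No matrix gene passed with edgeR on the 6 libraries. With both DESeq2 and limma-voom 4 were lower, Hspg2 and Col4a2 among them, where 0.753% of the described genes were. Col4a2 passed with edgeR in the fit of 11 libraries (adjusted p = 0.0489). Of 36 integrins and focal adhesion genes 4 were lower and 1 higher without overlap (11.1% and 2.78%), and 2 were lower with both tools.

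Markers of other glomerular cells had lower values in the same libraries. Of 17 endothelial markers 13 were described, 12 had a negative fold change, 5 were lower without overlap (38.5%, against 8.48% of the described genes) and the median was -0.79. Their summed level ranged from 176 to 333.2 CPM in Pod TOM and from 132.4 to 166.1 CPM in MyD88pko, without overlap. Cdh5, the endothelial cadherin, had 38.4, 35.9 and 22.99 CPM against 14.8, 10.8 and 15.4 CPM (log2 fold change -1.25, edgeR adjusted p = 0.249) and was singled out after its values were seen. Of 15 mesangial and smooth muscle markers 13 were described, 12 had a negative fold change, 5 were lower without overlap (38.5%) and the median was -1.06. Their sum ranged from 237.1 to 378.6 CPM in Pod TOM and from 191.1 to 238.1 CPM in MyD88pko, and the lowest Pod TOM library, replicate 3, lay within the MyD88pko range. Acta2, smooth muscle actin, was likewise singled out and had 30.6, 20.2 and 10.9 CPM against 6.67, 6.82 and 5.59 CPM (log2 fold change -1.69, adjusted p = 0.272). Pod TOM replicates 1 and 2 were highest for both lists. No marker of either list was at 0 in all 6 libraries. None passed with edgeR. With both DESeq2 and limma-voom 2 endothelial and 3 mesangial markers were lower, Cdh5 and Acta2 among them, where 0.753% of the described genes were. In bulk libraries, fewer cells of a type and less RNA per cell cannot be told apart, and the part of these cells in the matrix values and in Hspg2 was not tested.

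Summed markers of further cell types overlapped between the groups. Of 18 macrophage and monocyte markers 7 were described, 2 with a positive and 5 with a negative fold change. Of these 7, 2 were lower without overlap (28.6%, against 8.48% of the described genes). Their sums were 103.1 to 169 CPM in Pod TOM and 83.6 to 110.2 CPM in MyD88pko for all 18. Csf1r, the receptor of a macrophage growth factor, had 30.1, 29.1 and 20.3 CPM against 12.95, 15.8 and 17.3 CPM (log2 fold change -0.79, edgeR adjusted p = 0.370), without overlap. Cd68, a lysosomal protein of macrophages, had 11.7, 16.5 and 32.2 CPM against 24.0, 25.7 and 37.6 CPM (log2 fold change 0.53, adjusted p = 0.802) and overlapped. Neutrophil markers (1 of 8 described) summed to 31.2 to 51.4 CPM against 20.2 to 44.7 CPM, and lymphocyte markers (5 of 10) to 69.7 to 93.3 CPM against 38.6 to 88.8 CPM. Of the 5 described lymphocyte markers, 2 had a positive and 3 a negative fold change, with a median of -0.09. Cd3d, a chain of the T cell receptor complex, had 38.9, 36.5 and 59.4 CPM against 31.4, 33.1 and 20.1 CPM (log2 fold change -0.67, adjusted p = 0.534). It was the 1 of these 5 that was lower without overlap (20%, against 8.48% of the described genes). Proximal tubule markers (4 of 15) summed to 36.0 to 71.8 CPM against 37.4 to 53.6 CPM, and distal tubule and collecting duct markers (3 of 11) to 245 to 392.5 CPM against 312.2 to 317.9 CPM. Parietal epithelial markers (7 of 12) summed to 198.8 to 229.9 CPM against 186.2 to 208.2 CPM, with Cldn3 at 0 in all 6 libraries.

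**Figure D4:**
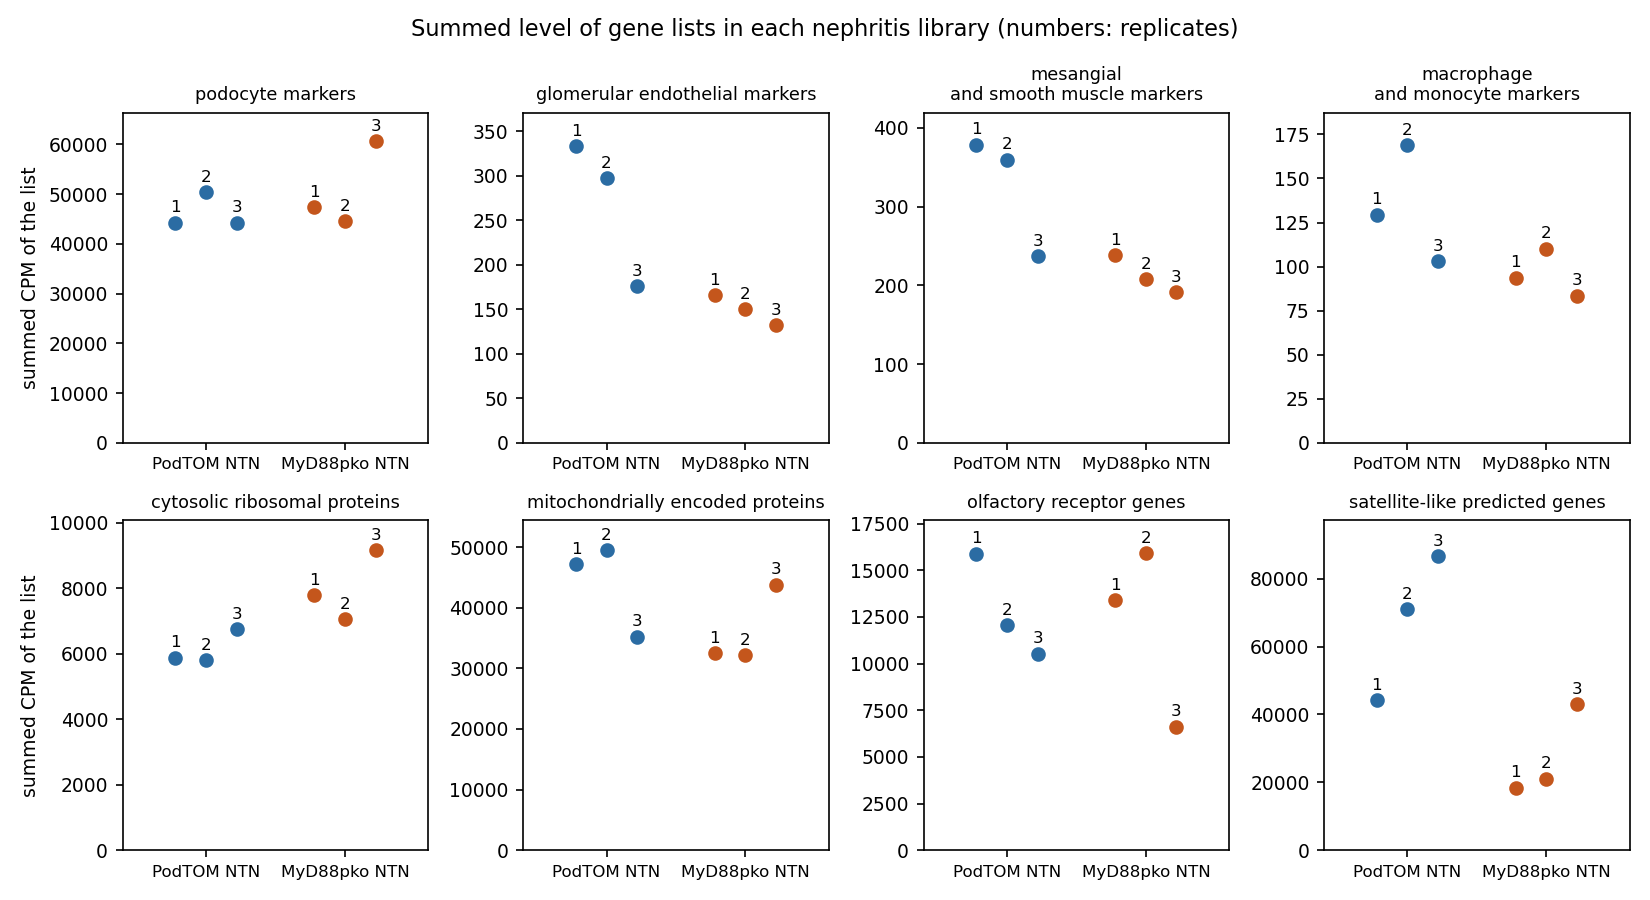
Summed level (CPM) of marker and other gene lists in each of the 6 nephritic libraries, with replicate numbers beside the points. Endothelial markers lie at 176 CPM or above in Pod TOM and at 166.1 CPM or below in MyD88pko, while podocyte markers overlap.

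Genes of protein synthesis and respiration had mostly positive fold changes. Of 82 described cytosolic ribosomal proteins 81 had a positive fold change, 46 were higher without overlap (56.1%, against 8.13% of the described genes), and the median was 0.34. Their summed level was 5870, 5805 and 6737 CPM in Pod TOM and 7784, 7056 and 9157 CPM in MyD88pko. No ribosomal protein passed, and Rps4x was higher with both DESeq2 and limma-voom. Many have processed copies elsewhere in the genome that can share their reads. Of 93 nuclear oxidative phosphorylation genes 86 had a positive fold change, 39 were higher without overlap (41.9%) and the median was 0.32. None passed, and 3 were higher with both tools, where 0.203% of the described genes were. Atp5b, a subunit of ATP synthase, had 452.4, 476.3 and 523.2 CPM against 694.6, 632 and 785 CPM (log2 fold change 0.54, edgeR adjusted p = 0.407). The 13 mitochondrially encoded genes went the other way, with negative fold changes in all 13 and a median of -0.32, but their summed level overlapped (47120, 49520 and 35200 CPM against 32470, 32170 and 43810 CPM).

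Of 33 proteasome subunits 17 were higher without overlap (51.5%, against 8.13% of the described genes), with a median of 0.26. Of 28 oxidative stress response genes 13 were higher and 1 lower without overlap (46.4% and 3.57%), with a median of 0.35. Translation factors had a median of 0.28 and 9 of 38 higher without overlap (23.7%), and mitochondrial ribosomal proteins a median of 0.12 and 13 of 78 (16.7%). No member of these lists passed, and 1 translation factor was higher with both DESeq2 and limma-voom, where 0.203% of the described genes were. The median SE of a described gene was 0.201. Because these lists and their sums share the same 6 libraries, their counts are not separate evidence. The median log2 fold change was 0.16 for MAP kinase and AP-1 genes, 0.19 for heat shock chaperones, 0.18 for lysosome and autophagy genes and 0.14 for splicing factors. It was 0.12 for cholesterol synthesis genes, 0.03 for unfolded protein response genes and -0.01 for genes of TGF-β, BMP and WNT signalling. Glycolysis genes had a median of 0.25, and of 25 cell cycle genes 3 were lower without overlap (12%, against 8.48% of the described genes), of which Pttg1 passed.

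**Figure D5:**
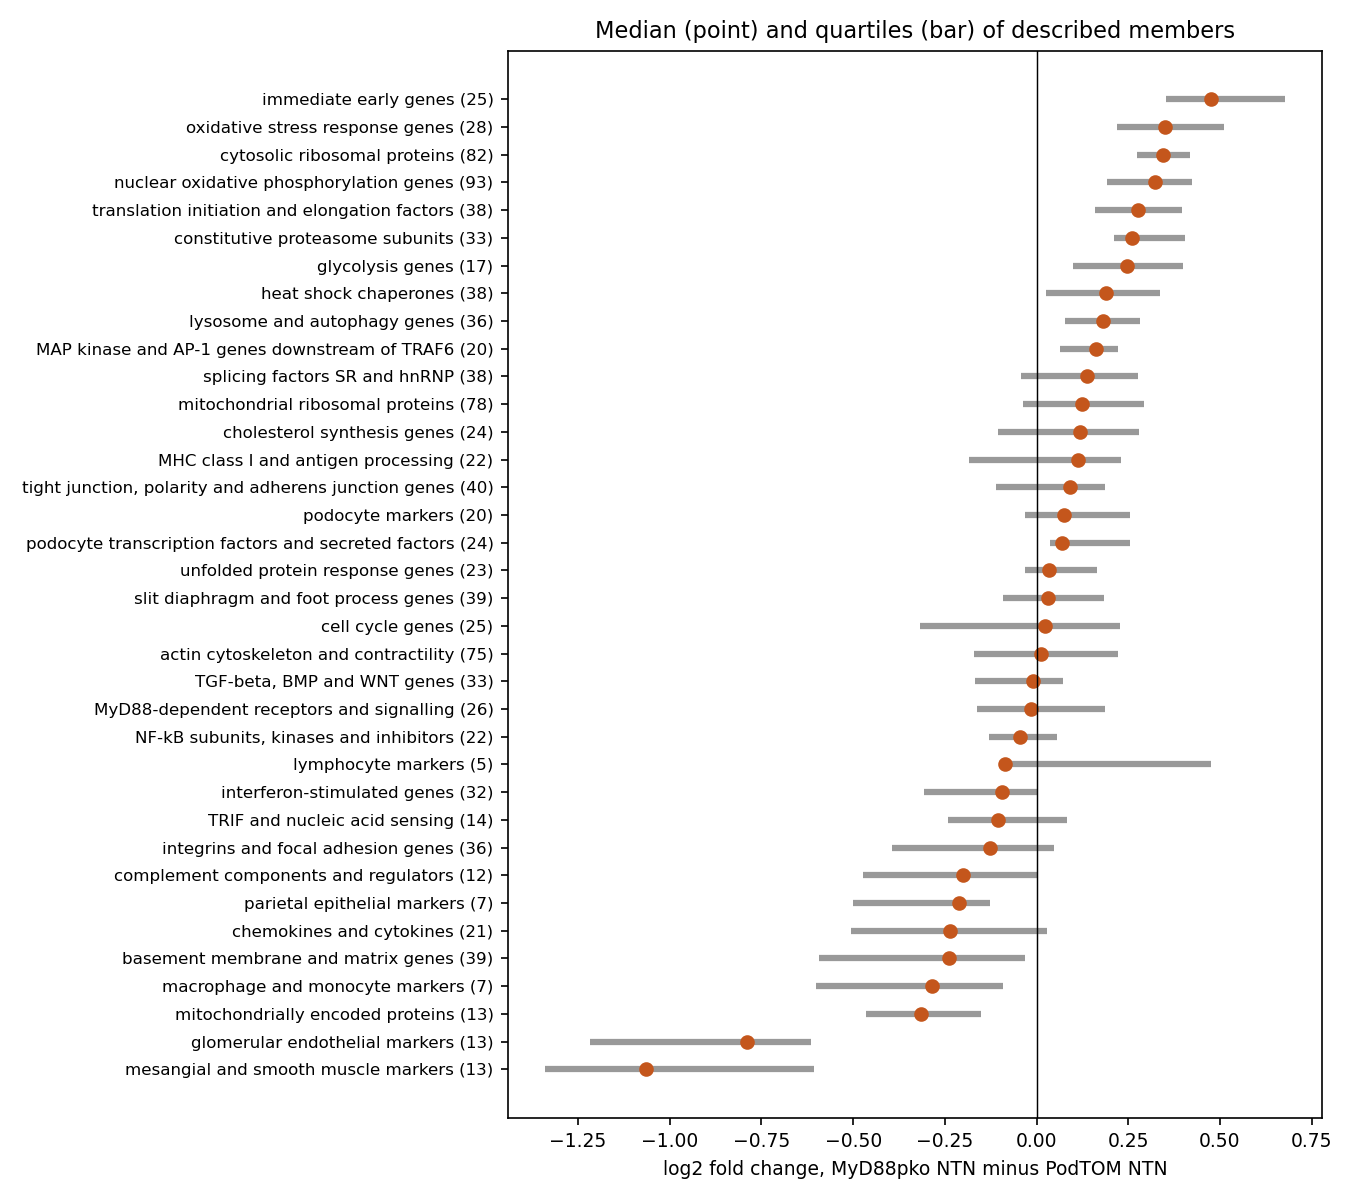
Median log2 fold change (MyD88pko against Pod TOM, both nephritic) of each gene list, with the quartiles as bars. Ribosomal proteins and oxidative phosphorylation genes lie above 0 (0.34 and 0.32), and endothelial and mesangial markers below (-0.79 and -1.06).

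Genes near the deleted locus were read as well. Of 138 genes starting within 5 Mb of Myd88, 66 were described, and Myd88 was the 1 gene among them that passed. Their median was 0.01.

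A group of 12 predicted genes with satellite-like repeats, put together after their values were seen, made up a large share of the nephritic libraries. Their summed level was 44130, 71040 and 86640 CPM in Pod TOM and 18370, 21010 and 43090 CPM in MyD88pko, against 2.15 to 6.57 CPM in the 5 untreated libraries. The sum of MyD88pko replicate 3 lay just below that of Pod TOM replicate 1. All 12 were lower in MyD88pko without overlap (100%, against 8.48% of the described genes), with log2 fold changes of -1.36 to -1.24. None passed (lowest edgeR adjusted p = 0.342), while 10 were lower with both DESeq2 and limma-voom, where 0.753% of the described genes were. The 12 genes share reads and count as 1 signal.

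The precision of the comparison limits what the absence of calls says. Among the 11822 described genes tested, the 95% interval of the log2 fold change lay within 1 of 0 for 9880 genes (83.6%) and within 2 for 11667. The other genes had wider intervals. Fold changes beyond 1 on the log2 scale were seen for 22 genes in the positive and 148 in the negative direction.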

How the data were processed

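RNA of FACS-sorted mTomato-positive podocytes was amplified with random and poly(T) primers, and libraries did not keep strand. According to the study's methods and the submitters' processing notes, the authors trimmed reads with cutadapt and quantified them with kallisto against the mouse transcriptome (mm10/GRCm38). The deposited values are estimated counts per transcript, 1 file per library, not normalized. Of 109282 transcripts, 107987 were matched to a gene of the GENCODE annotation, and their estimated counts were summed over 34547 genes and rounded. The 1295 unmatched transcripts were left out.

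edgeR 4.0.16 (R 4.3.3) was used with filterByExpr (minimum count 10), TMM normalization and robust quasi-likelihood tests on the 6 nephritic libraries. Untreated podocytes and the difference between genotype effects came from a fit of all 11. SE is the fold change divided by the root of F. Alternatives used DESeq2 1.42.0, limma 3.58.1, other filters and scalings, and left out each library. Tests were checked on simulated data. Depth was 20080140 to 32764201 counts, and intervals cover these libraries only.

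Named genes were those of the study's text (28 of 32 described). At most 15 per direction that passed were added, filled to 8 by p-value where fewer passed. These additions were picked among genes whose groups did not overlap. The MyD88 and TRIF lists were named too, and up to 4 members of other lists that passed or 2 by level. The members and the 42 lists were chosen with earlier results of these data known. Some genes that the rule names are not reported here.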

Additional observations from a re-analysis of the deposited data

Results flagged for a closer look

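Gm7334, a processed pseudogene on chromosome 17, was the 1 gene of 21200 tested (0.00472%) whose genotype difference differed between nephritic and untreated podocytes (log2 difference -11.58, SE 1.21, edgeR adjusted p = 0.00218). On the scale of all 11 libraries it had 1.78, 2.38 and 3.96 CPM in untreated Pod TOM, 10.9 and 8.48 CPM in untreated MyD88pko, and 5.53, 1.62 and 8.63 CPM in nephritic Pod TOM. It was at 0 in all 3 nephritic MyD88pko libraries, so the fitted value depends on the prior count and is no bound. Against a floor of 3 counts per library, the mean of nephritic Pod TOM was 45.1-fold higher. The lowest nephritic Pod TOM library, replicate 2, held 42 counts. In the nephritis comparison on 6 libraries Gm7334 missed the threshold (edgeR adjusted p = 0.124). It passed there in the edgeR fit of all 11 libraries (adjusted p = 0.00082), with DESeq2 and with limma-voom. Processed pseudogenes can share reads with their parent genes.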

How the results depend on the processing

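Counts of genes lower and higher in nephritic MyD88pko podocytes depended on the test and filter, while Myd88 stayed lower throughout. Size factors of DESeq2 in edgeR and a minimum of 5 CPM left 0 higher and 2 lower. TMM without satellite-like and receptor genes gave 4 lower, all 4 described. DESeq2 gave 31 higher and 129 lower (26 and 106 described), limma-voom 58 and 215 (53 and 178), no filter on low counts 16 and 103 (8 and 80), a vomeronasal receptor covariate 24 and 90 (21 and 66), and the fit of 11 libraries 13 lower (9 described). limma on ln(count + 0.5) gave 1 higher and 1 lower, the 1 lower being described. limma on log2(TPM + 1), which moved the median of described genes by 0.15, gave 0 lower (Myd88 -2.44, adjusted p = 0.290), as did leaving out the 3 libraries with most vomeronasal receptor signal (Myd88 -4.51, adjusted p = 0.256). That last fit sets MyD88pko replicate 3 alone against Pod TOM replicates 2 and 3 and assumes that the lone library varies like the other group, so a call lost there says nothing about stability. The cause of the other shifts was not tested.

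In untreated podocytes DESeq2 gave 12 higher and 24 lower and no filter 47 and 90. For the difference between the genotype differences they gave 24 higher and 24 lower, and 34 and 58. Leaving out 1 library at a time gave 0 to 11 higher and 1 to 34 lower in nephritis (0 to 11 and 1 to 31 described), 0 to 3 higher and 0 to 7 lower in untreated podocytes, and 1 to 4 lower for the difference. Without Pod TOM replicate 3 the nephritis counts were highest. The ranges for untreated podocytes and for the difference include the fits with a lone untreated MyD88pko library.

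Some genes changed sign, none past the threshold. Not all of these were near 0 in the fit of the 6 libraries, where Actn1 was at -0.37. Log2 fold changes were 0.0056 for Wnt5a with TMM without satellite-like and receptor genes, -0.022 for Synpo with the 5 CPM minimum, and 0.0040 for Wnt5a and -0.037 for Synpo with the covariate. With limma-voom they were 0.071 for Wnt5a, -0.014 for Ifnar2, -0.043 for Podxl, 0.071 for Ifi44, -0.13 for Synpo and -0.15 for Actg1. On log2(TPM + 1) they were 0.084 for Wnt5a, 0.055 for Cldn1, 0.042 for Tirap, 0.18 for Arhgap23 and 0.093 for Irak4. Without the 3 libraries, where the MyD88pko arm is replicate 3 alone, they were 0.022 for Actn1, 0.067 for Myh9, 0.30 for Cldn1, -0.63 for Cxcl15, 0.40 for Cxcl1, 0.13 for Tpm1, -0.67 for Tlr1, 0.15 for Arhgap23, 0.20 for Actn4, 0.18 for Irak4 and 0.080 for Fnbp1. That fit moved the median of described genes by 0.12. Leaving out 1 library at a time gave ranges of -0.019 to 0.16 for Irf3, -0.35 to 0.28 for Wnt5a, -0.43 to 0.18 for Ifi44, -0.16 to 0.13 for Synpo, -0.21 to 0.29 for Actg1, -0.36 to 0.069 for Cldn1, -0.0086 to 0.57 for Cxcl15, -0.68 to 0.039 for Cxcl1, -0.15 to 0.57 for Tlr1, -0.31 to 0.011 for Arhgap23, -0.083 to 0.25 for Ifnar2, -0.055 to 0.22 for Podxl and -0.0057 to 0.39 for Irak1. The medians of immediate early genes (0.32 to 0.83) and cytosolic ribosomal proteins (0.21 to 0.44) kept their sign in these fits. So did those of endothelial (-1.01 to -0.66) and mesangial markers (-1.21 to -0.85).

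No paired analysis was possible because the replicate numbers follow accession order and pair no libraries. With 3 libraries per genotype, the intervals given above are not a limit of detection, because they are not adjusted for the number of genes tested. Genes whose intervals excluded no change could still miss the threshold. Examples were Hspg2 (interval -2.015 to -1.057, edgeR adjusted p = 0.124) and Gm3055 (interval -5.696 to -2.627, adjusted p = 0.245). Differences as large as these could therefore go uncalled.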
